A study of Arabidopsis thaliana with 9 samples.

Results

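A group of 138 nuclear genes had no reads in leaves of wild-type Arabidopsis thaliana and had reads in every leaf library of 2 mutants of the histone methyltransferases ATXR5 and ATXR6. They were chosen by a rule on the measured values: a TPM (reads per gene length, scaled here to a library total of 1000000) of exactly 0 in all 3 wild-type libraries and above 0 in all 6 mutant libraries. The table holds 27445 nuclear genes, of which 5570 were at 0 in wild type, so the members were 2.48% of the wild-type-silent genes. Because the rule uses the mutants against wild type, levels against wild type are given as a description with no test, and tests were made only between the mutants.

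The 9 RNA-seq libraries came from leaves of 3-week-old plants kept at 22 °C under days of 16 h light and nights of 8 h, 3 libraries per genotype. Wild type (WT) was Col. The mutant called hyp/hyp here was atxr5;atxr5;atxr6hyp;atxr6hyp, with 2 copies of the atxr6hyp allele. The mutant called hyp/c-1 was atxr5;atxr5;atxr6hyp;atxr6c-1, in which an atxr6c-1 allele stood in for 1 of the atxr6hyp copies. Both mutants therefore carried the same homozygous atxr5 alleles and at least 1 copy of atxr6hyp, and differed in the other ATXR6 allele. The labels do not say whether libraries of a genotype came from separate plants or pools, so p-values measure the spread between these libraries, which may be technical. The study asked what lies behind the additional developmental defects of hyp/c-1 plants.

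ATXR5 and ATXR6 place a single methyl group on lysine 27 of histone H3, a mark found on the compact chromatin around the centromeres, where transposons are kept silent. In plants that lack both activities, transposons and other silent sequences of this chromatin are known to become transcribed and DNA in the same regions is known to be replicated in excess.

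Recovered depth was 21289647 to 38766556 reads per library (each may be a single read or a pair, which is not given; both are called reads), with hyp/hyp replicate 2 the shallowest, and summed to 93843656 reads in WT, 78629503 in hyp/hyp and 97291351 for hyp/c-1. Leaf markers (genes of the Rubisco small subunit, light harvesting, Rubisco activase and plastid glyceraldehyde-3-phosphate dehydrogenase) summed to 64250 to 65700 TPM in WT, 50510 to 57610 TPM for hyp/hyp and 53700 to 68890 TPM for hyp/c-1, so that each hyp/hyp library was below each WT library. Of these genes, RBCS1A (15340 to 16640 TPM in WT, 9375 to 10900 TPM for hyp/hyp), LHCB1.3 and GAPA were lower in each hyp/hyp library than in each WT library. LHCB1.1 and RCA overlapped between WT and hyp/hyp. The part of these shifts in the members' values was not tested. ATXR6 itself had 1.22 to 1.43 TPM in WT and 0 to 0.111 TPM in the mutants. In a principal component analysis of the 6 mutant libraries, replicate 3 of each mutant lay farthest out, at −51.1 for hyp/hyp and 51.2 for hyp/c-1 on the first component, with the other 4 libraries between −20.6 and 21.4. Of 4 lists of marker genes of other organs, 2 had a member: the floral and meristem list with 1 of 20 (STK) and the root list with 1 of 6 (SHV2).

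By TPM, though not by reads, most of the signal of the group came from 1 short gene model on chromosome 2. The annotated spans of the 3 members with the highest TPM are shown because their length sets how many reads their TPM stands for. They are RefSeq sequences of TAIR10.1, gene strand, with a start codon at the first position and the last codon, a stop, in capitals. The third span, of 27 bp, does not begin with a start codon.
AT2G11778: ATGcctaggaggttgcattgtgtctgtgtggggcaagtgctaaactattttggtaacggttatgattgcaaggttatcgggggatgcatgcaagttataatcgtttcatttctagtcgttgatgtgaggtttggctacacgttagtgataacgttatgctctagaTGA
AT2G11773: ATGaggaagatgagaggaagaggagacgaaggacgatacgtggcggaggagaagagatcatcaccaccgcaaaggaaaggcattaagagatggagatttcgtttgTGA
AT4G09355: ctgttgacggaagctctatcagctTAA

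AT2G11778 (chr2:4728072-4728239, plus strand, 168 bp, annotated as an uncharacterized protein) had 586, 586 and 510 TPM in hyp/hyp replicates 1, 2 and 3, and 472, 422 and 416 TPM in hyp/c-1. These values stood for 975 to 1444 reads per library. The 3 WT libraries had 0 reads, so the means (± SD, n = 3) of 561 ± 44 TPM for hyp/hyp and 437 ± 30.9 TPM for hyp/c-1 were at least 468-fold and at least 364-fold above a floor of 3 reads per WT library. Its reads made up 41.5% of all reads of the 138 members, and none of its 50-base words occurs elsewhere in the genome. AT2G11773 (chr2:4724036-4724143, minus strand, 108 bp, uncharacterized) is the next gene of the table on the chromosome. It had 25.1, 23.0 and 18.2 TPM in hyp/hyp and 13.2, 25.6 and 17.1 TPM for hyp/c-1, from 25 to 38 reads per library, and the mutants overlapped. AT4G09355 (chr4:5937725-5937751, minus strand) had 15.9, 18.4 and 11.2 TPM in hyp/hyp and 20.4, 21.6 and 17.7 TPM for hyp/c-1, but from only 4 to 10 reads per library. It lies inside the noncoding RNA gene AT4G05715, and reads of both cannot be told apart, since the strand setting is not given.

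**Figure D1:**
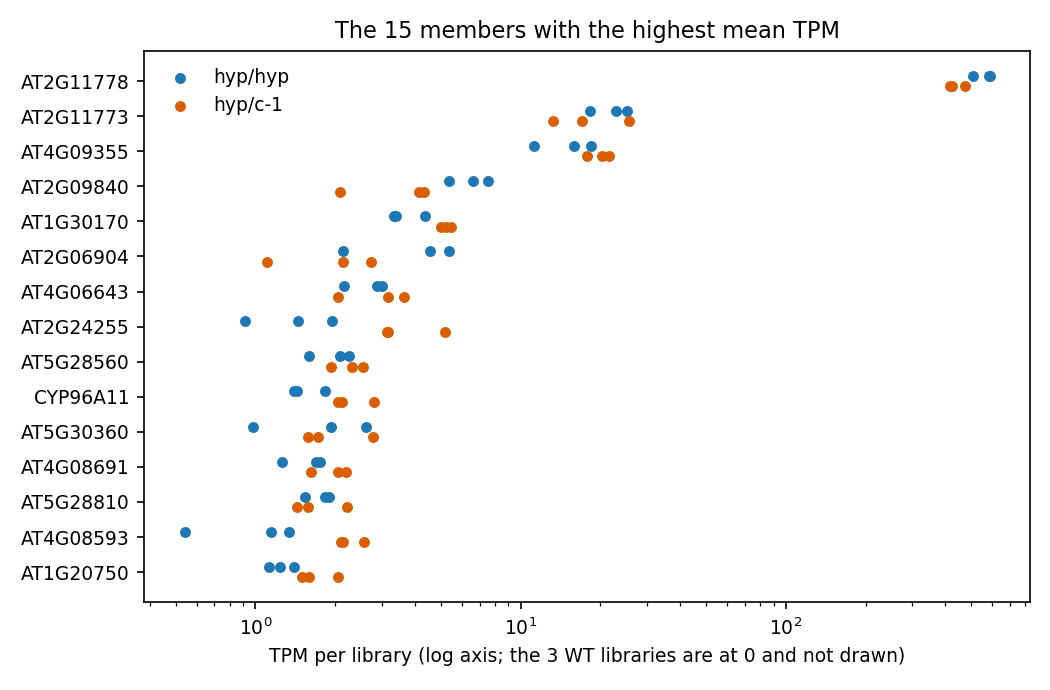
TPM of the 15 members with the highest mean over the mutants, 1 point per library (log axis), for hyp/hyp and hyp/c-1. AT2G11778 stands at 416 to 587 TPM, and from the fourth gene down all values lie at or under 7.50 TPM.

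Apart from these, the members were read at low levels in both mutants. The mean over the 6 mutant libraries ran from 0.0310 to 499 TPM with a median of 0.296 TPM, and 26 of 138 members reached 1 TPM. Summed over the 6 libraries a member had 7 to 6945 reads, with a median of 39. In 68 members every mutant library held 3 or more reads, and in 21 members 10 or more. In 46 members at least 1 mutant library held a single read. The mean of hyp/hyp was above the WT floor of 3 reads in 109 members and that of hyp/c-1 in 110; the others are known only to have had reads where WT had none.

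The rule was also applied with the genotypes exchanged, as a description with no test. With hyp/hyp in the place of WT, 6 genes were at 0 in its 3 libraries and read in the other 6, out of 4985 at 0 in hyp/hyp. With hyp/c-1 in that place there were 2, out of 4688. Both counts ask for reads in the other mutant, which shares the atxr5 alleles and atxr6hyp. A count with other demands, reads in all 3 WT libraries and 0 in all 6 mutant libraries, gave 7 nuclear genes. Among the 5570 WT-silent genes, 3842 were also at 0 in all mutant libraries, 857 had reads in 1 mutant library, and the counts fell to 324, 209, 120 and 80 genes for 2, 3, 4 and 5 libraries before the 138 with reads in all 6. Reads in all 3 libraries of 1 mutant were seen for 186 WT-silent genes in hyp/hyp and for 251 for hyp/c-1. Depth also differed, with 78629503 reads in hyp/hyp and 97291351 for hyp/c-1, and its part in these counts was not tested. Just outside the rule, the 80 genes read in 5 of 6 mutant libraries had a median of 12 reads over the 6, against 39 for the members. A further 44 genes had a single WT read and reads in all mutant libraries, with a median of 45.5 reads. They include AT2G18190, with 1 WT read and 65 to 222 reads per mutant library, and HDG4 (AT4G17710), a homeodomain gene, with 1 WT read and 34 to 232.

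**Figure D2:**
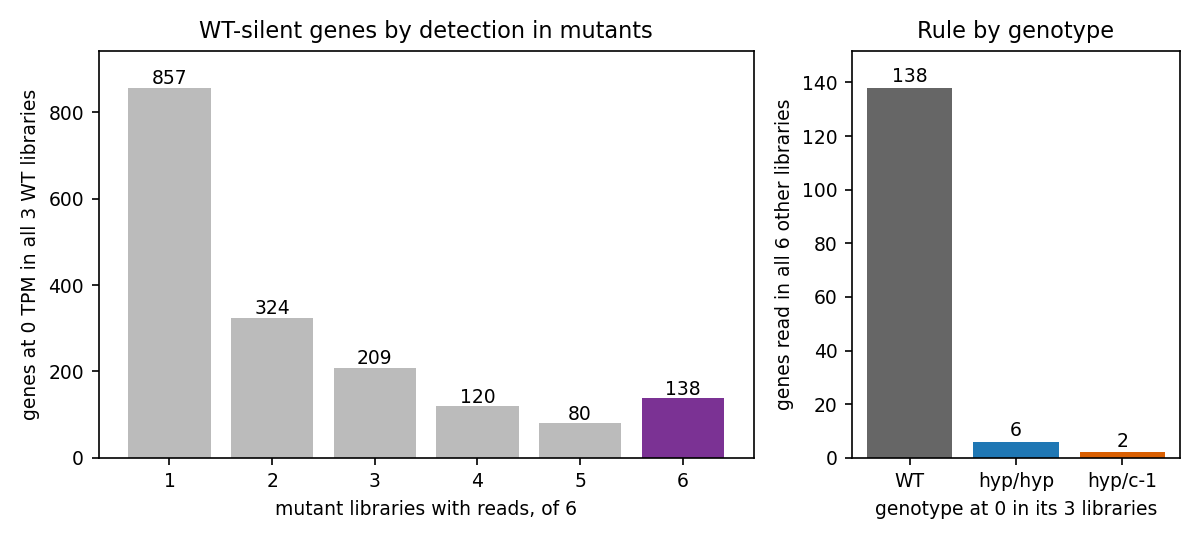
Left, genes at 0 TPM in all 3 WT libraries by the number of mutant libraries that hold reads (the 3842 genes with none are not drawn). Right, genes at 0 in the 3 libraries of 1 genotype and read in all 6 others: 138 for WT, 6 for hyp/hyp and 2 for hyp/c-1.

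What the members encode was read from the RefSeq product names. No gene symbol was annotated for 115 of 138 (83.3%, against 80.4% of the other WT-silent genes and 62.2% of all nuclear genes). Uncharacterized, hypothetical or domain-of-unknown-function proteins made up 51 members (37.0%), against 26.3% and 14.5%. Names of transposon proteins (transposase, reverse transcriptase, gag, retrotransposon) were on 8 members (5.80%), against 1.34% of the other WT-silent genes and 0.696% of all nuclear genes. MADS-box transcription factor names were on 4 members (2.90%, against 0.828% and 0.437%). Other classes were compared in the same way: 0 members had names of small secreted cysteine-rich proteins (5.41% of the other WT-silent genes and 2.08% of all nuclear genes), 0 of pollen and cell wall proteins (2.58% and 1.58%), 0 of seed or lipid storage proteins (2.099% and 1.035%), and 4 of F-box proteins (2.90%, against 7.25% and 2.50%). These shares are descriptions, with no test.

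The transposon proteins were the following. AT2G06425 and AT4G04265 encode PttA/En/Spm transposases, enzymes that cut and move DNA transposons. AT2G06425 (chr2:2571928-2572743) had 0.788, 1.22 and 0.836 TPM in hyp/hyp and 0.943, 1.60 and 1.17 TPM for hyp/c-1, and the mutants overlapped. AT4G04265 (chr4:2057570-2058299) had 0.391, 0.543 and 0.623 TPM in hyp/hyp and 0.904, 2.59 and 1.03 TPM for hyp/c-1, so each hyp/c-1 library was above each hyp/hyp library. AT1G36085 is named as a Mutator-like transposase and had 0.311 to 0.433 TPM in hyp/hyp and 0.149 to 0.555 TPM for hyp/c-1, but 64.9% of its 50-base words occur elsewhere in the genome. Retroelement proteins, which copy themselves through RNA, were represented by AT1G43730 (reverse transcriptase, 0.428 to 1.01 TPM over the mutants), AT3G30820 (retrotransposon ORF-1, 0.205 to 1.14 TPM), AT2G16676 (Ta11-like non-LTR element, 0.228 to 0.644 TPM), AT3G43837 (reverse transcriptase-like, 0.0728 to 0.320 TPM) and AT2G06105 (gag polyprotein, 0.0607 to 0.179 TPM). All 8 lie within 3 Mb of the gene-poorest stretch of their chromosome.

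Ulp1 protease family proteins, named after yeast enzymes that cleave the modifier SUMO, were 4 of the members out of 7 such genes in the nuclear table. These words were picked after the members had been seen. AT5G28810 (chr5:10823356-10826646) was the highest, with 1.82, 1.54 and 1.89 TPM in hyp/hyp and 2.20, 1.44 and 1.58 TPM for hyp/c-1, from 51 to 132 reads per library, and the mutants overlapped. AT2G10260 had 0.328 to 0.628 TPM over the mutants, AT3G31910 0.0789 to 0.328 TPM and AT4G08430 0.0450 to 0.196 TPM. A further 5 members are named myosin heavy chain-like, out of 30 such nuclear genes, with 0.0191 to 0.313 TPM per library. Proteins named for binding nucleic acid and zinc ions, AT2G09840 and AT2G06904, reached 7.50 and 5.37 TPM in hyp/hyp replicate 1.

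Regulators of development were few and low. STK (SEEDSTICK, AT4G09960, chr4:6236375-6241281) encodes a MADS-box factor of carpels and ovules. It had 4, 6 and 6 reads in hyp/hyp (0.0582, 0.121 and 0.0927 TPM) and 23, 19 and 14 reads in hyp/c-1 (0.258, 0.282 and 0.195 TPM), with no overlap between the mutants. STK overlaps AT4G09950, whose mean was 3.07 TPM in WT, 5.22 TPM for hyp/hyp and 6.01 TPM for hyp/c-1, and the part of that gene in the STK reads was not tested. AT4G14530, an AGAMOUS-like MADS-box gene, had 0.206 to 0.237 TPM in hyp/hyp and 0.343 to 0.757 TPM for hyp/c-1. It overlaps AT4G14520, whose means were 11.0 TPM in WT, 13.3 TPM for hyp/hyp and 12.0 TPM for hyp/c-1. The part of AT4G14520 in the AT4G14530 reads was not tested. AGL90 (AT5G27960) and AT5G49420 had 1 to 7 reads per library, and their mutants overlapped. MYB79, LBD7 (of the LOB-domain family), OFP9 (of the OVATE family of repressors) and SRS8 (of the SHI family) had 1 to 6 reads per library. Of the 50-base words of OFP9, 77.3% occur elsewhere in the genome, so its reads may belong to copies. The peptide genes DVL21 and RTFL18 belong to a family that affects organ shape when overexpressed, and they had 1 to 4 reads per library.

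Enzymes included CYP96A11 (AT4G39500, chr4:18366900-18368531), a cytochrome P450 of the CYP96A subfamily. It had 1.837, 1.398 and 1.44 TPM in hyp/hyp and 2.12, 2.81 and 2.05 TPM for hyp/c-1, which put the means at least 12.6-fold and at least 18.9-fold above the WT floor, and all hyp/c-1 libraries lay above all hyp/hyp libraries. Its nearest neighbour AT4G39490, 12 bp away, had 0 TPM in WT and means of 0.0259 and 0.0323 TPM in the mutants. AT1G20750 (chr1:7203302-7209013), named as a RAD3-like DNA helicase, had 1.4, 1.233 and 1.128 TPM in hyp/hyp and 2.04, 1.592 and 1.497 TPM for hyp/c-1, from 71 to 212 reads per library. AT1G49250, named as an ATP-dependent DNA ligase, had 11 reads in each hyp/hyp library and 34, 13 and 18 in hyp/c-1. AT1G75600, named as a histone, had 1 to 8 reads per library. Of 22 DNA damage response genes 0 were members, because all but 1 of them were read in WT. Their summed level was 94.1 to 105 TPM in WT, 666 to 697 TPM for hyp/hyp and 696 to 757 TPM for hyp/c-1. Most of the mutant sum was TSO2 (28.8 to 40.6 TPM in WT, 261 to 319 TPM over the mutants), SMR7 and PARP2. Not all of the list rose. BARD1 was lower in each mutant library than in each WT library, and RNR1 was lower in each hyp/hyp library. TEB overlapped between WT and both mutants, SMR4 between WT and hyp/hyp, and SMR5 was at 0 in all 9 libraries.

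Genes that DNA methylation is known to keep silent gave 0 members of 3. SDC (AT2G17690), an F-box gene silenced through DNA methylation, had WT values of 0.0326, 0 and 0.0372 TPM and missed the rule by 1 read in each of 2 WT libraries. It had 1.78, 1.44 and 0.828 TPM in hyp/hyp and 1.258, 1.854 and 1.67 TPM for hyp/c-1, each above each WT library. FWA (AT4G25530), a homeodomain gene that is normally expressed in the endosperm, was at 0 in WT and hyp/hyp and had 1 read in each hyp/c-1 library.

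Of the marker lists of other organs, the summed level of the pollen and root lists overlapped between WT and both mutants, the seed list was lower in hyp/c-1 than in WT, and the floral list was higher in hyp/hyp than in WT. Their part in the members' reads was not tested. The seed and embryo list had 0 of 16 members and summed to 3.11 to 3.79 TPM in WT, 3.03 to 3.36 TPM for hyp/hyp and 1.504 to 2.404 TPM for hyp/c-1. Most of this sum was OLEO4, which overlapped between WT and hyp/c-1, and FUS3. FUS3 had 0.866 to 1.41 TPM in WT and 0.287 to 0.761 TPM for hyp/c-1. The pollen and egg cell list had 0 of 10 members and summed to 0.448 to 1.303 TPM in WT, 0.382 to 1.261 TPM for hyp/hyp and 0.368 to 1.66 TPM for hyp/c-1. The root list summed to 21.0 to 21.5 TPM in WT, 21.4 to 22.3 TPM for hyp/hyp and 19.8 to 23.9 TPM for hyp/c-1, with RHD6, a root hair regulator, at 0 in all 9 libraries. Nearly all of this sum was SHR and SCR, which moved in opposite directions. SHR had 5.16 to 5.82 TPM in WT, 8.31 to 8.68 TPM for hyp/hyp and 7.43 to 9.28 TPM for hyp/c-1. SCR had 15.25 to 16.15 TPM in WT, 12.8 to 13.6 TPM for hyp/hyp and 12.2 to 14.4 TPM for hyp/c-1. SHV2 (COBL9, AT5G49270), which acts in root hair growth, was the 1 member of the root list, with 2 to 4 reads per hyp/hyp library and 5 to 7 per hyp/c-1 library. The floral and meristem list summed to 6.30 to 6.65 TPM in WT, 8.08 to 9.18 TPM for hyp/hyp and 6.20 to 10.8 TPM for hyp/c-1. Within it, FLC, a flowering repressor, had 0.134 to 0.377 TPM in WT, 0.800 to 1.08 TPM for hyp/hyp and 0.428 to 0.659 TPM for hyp/c-1. KNAT1 had 0 to 0.0207 TPM in WT, 0.371 to 0.569 TPM for hyp/hyp and 0.252 to 0.635 TPM for hyp/c-1. KNAT2 and KNAT6 were also higher in each hyp/hyp library than in each WT library, and overlapped between WT and hyp/c-1. SEP1, SEP3, FT, AG, AP3, SHP1 and SHP2 overlapped between WT and hyp/hyp. In leaf RNA as a whole, more cells with reads and more RNA per cell cannot be told apart.

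The members lay close to the gene-poorest stretches of the chromosomes, which in Arabidopsis flank the centromeres. For each chromosome the 1 Mb window with the fewest genes of the table was located, and 84 of 138 members (60.9%) lay within 3 Mb of its centre. The same held for 21.3% of the 5432 other WT-silent genes and for 11.6% of all nuclear genes. Within 1 Mb there were 24 members (17.4%), against 3.41% and 1.37%. The median distance was 2.20 Mb for members, 6.11 Mb for other WT-silent genes and 7.80 Mb for all nuclear genes. Members had a median of 70 other genes within 250 kb on either side, against 130 and 135.

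**Figure D3:**
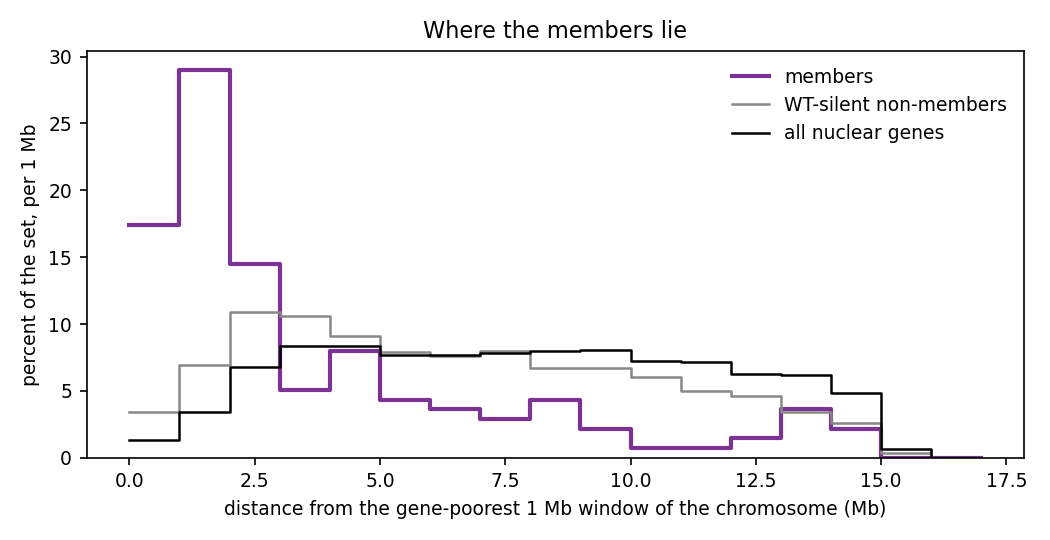
Share of each gene set per 1 Mb of distance from the centre of the gene-poorest 1 Mb window of the chromosome. The bin of 1 to 2 Mb holds 29.0% of the members, 6.94% of the other WT-silent genes and 3.45% of all nuclear genes.

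By chromosome, 37 members (26.8%) lay on chromosome 2, which carries 15.7% of the nuclear genes, and 27 (19.6%) on chromosome 1, which carries 26.1%. Within 3 Mb of the gene-poorest window lay 26 of 37 members on chromosome 2, 18 of 24 on chromosome 3, 18 of 22 on chromosome 4, 13 of 28 on chromosome 5 and 9 of 27 on chromosome 1. The transposon class described above held 191 nuclear genes. A narrower search of names for transpos, reverse transcriptase or gag-polyprotein, picked after the members were seen, found 104, with 48 within 3 Mb. All 8 members named as transposon proteins lay within 3 Mb. So did 42 of 51 uncharacterized proteins, 2 of 4 MADS-box genes, 9 of 18 enzymes and 19 of 40 other named proteins. None of the 4 F-box genes and 1 of the 6 genes named for other transcription factors or DNA binding lay there. These splits were not tested.

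Some members sat next to each other. In 10 places 2 members followed one another with no other gene of the table between them, which took in 20 members. These stretches were 1343 to 48843 bp long, so some pairs were far apart. No share over other genes is given beside this count, so it does not show that members cluster. AT2G06904 and AT2G06906 are 47 bp apart, with means of 4.015 and 1.056 TPM in hyp/hyp and 1.995 and 0.680 TPM for hyp/c-1. AT1G04450 (RIC3, an effector of ROP GTPases) and AT1G04455 are 243 bp apart on the arm of chromosome 1. RIC3 had 1 to 3 reads per library, and AT1G04455 had a mean of 0.299 TPM in hyp/hyp and 0.794 TPM for hyp/c-1. Another gene of the table lay within 1 kb of 65 members, likewise without a share over other genes. Of the 138, 27 (19.6%) overlapped another annotated gene, against 28.3% of all nuclear genes, and for these the reads cannot be assigned by strand. AT1G04455, AT1G49250, AT2G06425 and AT4G14530 are among them.

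In gene structure the members had a median span of 1427 bp, between 1078 bp for other WT-silent genes and 2078 bp for all nuclear genes. Single-exon genes were 15.2% of members, 35.5% of the other WT-silent genes and 18.9% of all nuclear genes. The median GC content was 39.9%, against 39.0% and 38.9%. Copies elsewhere in the genome were limited: 76 of the 137 members long enough to hold a 50-base word had none in common with another place, 22 shared over 10% of these words and 6 over 50%. AT1G40129 shared all of its words, so its reads (0.0982 to 0.392 TPM) may belong to copies. Among other genes described here, the share was 33.6% for AT3G30823, 24.7% for AT4G08430, 16.7% for AGL90, 14.7% for AT5G28810 and 11.3% for AT2G06425.

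SOG1, the transcription factor that switches on most DNA damage genes in plants, binds a palindrome, CTT and AAG with any 7 bases between them. Promoters, taken as the 250 bases before and 50 after the annotated start, held it on 21 of 138 members (15.2%), 13.2% of the other WT-silent genes and 11.8% of all nuclear genes. The palindrome reads the same on both strands, and matches were allowed to overlap. The helicase gene AT1G20750 and the uncharacterized AT1G21528 (0.617 to 2.02 TPM over the mutants) each had 2 matches. Their promoters (chr1:7208964-7209263 and chr1:7543028-7543327, minus strand, TAIR10.1) are shown with the fixed bases of each match in capitals. A match describes the letters only.
AT1G20750: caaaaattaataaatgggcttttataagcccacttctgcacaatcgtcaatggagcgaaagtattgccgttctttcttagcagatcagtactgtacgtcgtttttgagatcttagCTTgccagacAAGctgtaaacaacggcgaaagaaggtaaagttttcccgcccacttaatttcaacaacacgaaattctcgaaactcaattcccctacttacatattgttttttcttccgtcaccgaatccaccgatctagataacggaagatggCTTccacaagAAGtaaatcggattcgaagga
AT1G21528: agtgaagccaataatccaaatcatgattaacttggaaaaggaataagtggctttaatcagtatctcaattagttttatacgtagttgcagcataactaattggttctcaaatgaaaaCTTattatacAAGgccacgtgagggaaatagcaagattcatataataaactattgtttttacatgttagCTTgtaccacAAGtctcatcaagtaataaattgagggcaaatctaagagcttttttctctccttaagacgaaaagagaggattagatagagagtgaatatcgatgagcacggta

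Setting hyp/c-1 against hyp/hyp bears on the study's question. The rule did not use the direction of this difference, but it asked for reads in all 6 mutant libraries. WT-silent genes read in only 1 of the mutants, such as FWA, are therefore left out, which limits the differences that members can show. The comparison was tested with limma on log2(TPM + 0.1) over the 6 mutant libraries. It covered 20206 genes above 0 TPM in all 6, which all members are. WT was left out, because its values of 0 would add a spread of 0 to every member. The call asked for a Benjamini-Hochberg adjusted p under 0.05 with a log2 difference of 1 or more in either direction, and no gene met it (0 called, 0.0% of the genes tested). The lowest adjusted p over all genes, 0.103, was shared by 26 genes, of which the member AT5G09780 was 1. At an unadjusted p under 0.05 there were 3525 genes, 19 of them members, and limma voom on the recovered reads gave 0 calls with 3631 genes and 16 members at that level. Of the members, 15 were higher in hyp/c-1 at an unadjusted p under 0.05, beside 8.12% of all genes tested, and 4 were lower, beside 9.32%.

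The log2 difference, hyp/c-1 minus hyp/hyp, had a median of 0.11 over the members and of −0.06 over all genes tested, with 78 members higher in hyp/c-1 and 60 lower. The share higher was 56.5% for members and 40.7% for all genes. The values ran from −0.96 to 2.24, and 9 of 138 members had an absolute difference of 1 or more, beside 2.89% of all genes tested. All 3 hyp/c-1 values lay above all 3 hyp/hyp values in 22 members, beside 11.2% of all genes tested, and below them in 10, beside 11.4%. The genes tested were not matched to the members in read counts, and the part of low counts in these shares was not tested. Summed TPM of all members was 703, 703 and 609 in hyp/hyp and 597, 547 and 525 for hyp/c-1, with each hyp/c-1 library below each hyp/hyp library, and most of it was AT2G11778. Summed TPM of the members other than AT2G11778 was 117, 117 and 98.5 in hyp/hyp and 125, 125 and 109 for hyp/c-1. The number of WT-silent genes with any read was 565, 485 and 654 in hyp/hyp and 881, 625 and 630 for hyp/c-1, with the deepest library, hyp/c-1 replicate 1, the highest and the shallowest, hyp/hyp replicate 2, the lowest.

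**Figure D4:**
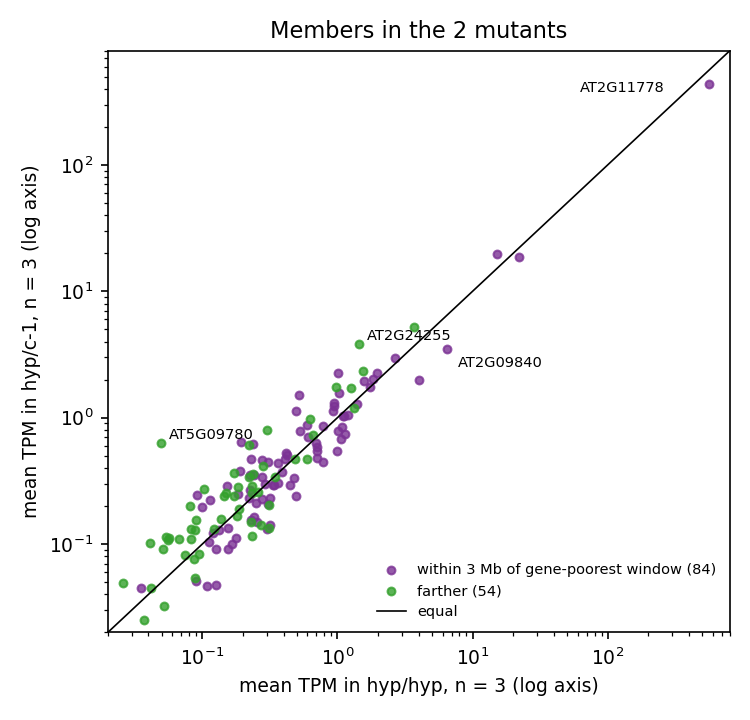
Mean TPM of the 138 members in hyp/hyp and hyp/c-1 (n = 3 each, log axes), coloured by distance from the gene-poorest window; the line marks equal values. Most points lie along the line, and AT5G09780 lies farthest above it, at 0.0495 TPM in hyp/hyp and 0.628 TPM for hyp/c-1.

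Of the 54 members beyond 3 Mb, 39 were higher in hyp/c-1 (72.2%), with a median log2 difference of 0.28. Of the 84 members within 3 Mb, 39 were higher (46.4%), with a median of −0.03. Over all nuclear genes tested the medians were −0.06 beyond and −0.04 within 3 Mb, with 40.5% and 43.2% higher in hyp/c-1. The difference between the near and far members was not tested, since the members were chosen with results known. The 8 transposon proteins had a median of 0.12, with 4 higher and 4 lower.

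AT5G09780 (chr5:3036956-3038614, minus strand), annotated as a transcription factor of the plant-specific B3 family, had the largest difference. It had 1 read in each hyp/hyp library (0.0430, 0.0598 and 0.0457 TPM) and 13, 20 and 14 reads in hyp/c-1 (0.431, 0.877 and 0.577 TPM). Every hyp/c-1 library was thus above every hyp/hyp library, and hyp/hyp stood at the lower edge of the rule. The log2 difference was 2.24 (SE 0.32, 95% interval 1.51 to 2.97, limma adjusted p = 0.103). From 3 and 47 reads in all, the ratio per sequenced read was 12.7, with an exact counting interval of 4.08 to 63.6 that covers counting error only. The gene lies 363 bp from ATXR5 (AT5G09790) on the same strand, beyond the end of ATXR5 transcripts. ATXR5 had 4.24, 4.38 and 4.23 TPM in WT, 2.05, 1.958 and 1.496 TPM for hyp/hyp and 1.68, 1.70 and 1.54 TPM for hyp/c-1. Its neighbour on the other side, AT5G09770, had means of 21.2 TPM in WT, 22.1 TPM for hyp/hyp and 22.4 TPM for hyp/c-1. The stretch between ATXR5 and AT5G09780 makes up most of the promoter window of the latter (chr5:3038565-3038864, minus strand), which is shown for that reason. It holds no match to the SOG1 palindrome.
AT5G09780: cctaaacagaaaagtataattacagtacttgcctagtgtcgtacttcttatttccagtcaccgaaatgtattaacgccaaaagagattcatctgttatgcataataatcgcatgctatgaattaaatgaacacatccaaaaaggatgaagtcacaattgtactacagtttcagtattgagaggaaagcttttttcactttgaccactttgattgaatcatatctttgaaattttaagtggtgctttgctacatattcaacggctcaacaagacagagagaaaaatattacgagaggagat

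AT2G24255 (chr2:10315515-10317353), named as an F-box and kelch-repeat protein, a kind of substrate receptor of ubiquitin ligases, had 1.94, 0.917 and 1.44 TPM in hyp/hyp and 5.20, 3.12 and 3.16 TPM for hyp/c-1. The mutants did not overlap, and these values stood for 17 to 174 reads per library. The log2 difference was 1.37 (SE 0.30, 95% interval 0.67 to 2.07, limma adjusted p = 0.123). With WT added to the fit, 144 genes were called, AT2G24255 and AT5G09780 among them. The rule sets all WT values of a member to 0, which adds a spread of 0. The calls of these members are therefore no support for a difference. That fit also has more residual degrees of freedom, and the cause was not tested. The transposase gene AT4G04265 differed by 1.25 (SE 0.39, adjusted p = 0.190). The uncharacterized AT5G28823, with 0.180, 0.251 and 0.153 TPM in hyp/hyp and 0.917, 0.257 and 0.761 TPM for hyp/c-1, differed by 1.22 (SE 0.42, adjusted p = 0.214). Its second hyp/c-1 library was just above the hyp/hyp range.

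The 4 most negative differences, of which none passed the adjusted threshold, include nucleic acid and zinc ion binding proteins on chromosome 2. AT2G09840 (chr2:3704577-3705594) had 7.50, 6.63 and 5.36 TPM in hyp/hyp and 4.32, 4.14 and 2.08 TPM for hyp/c-1, with no overlap, and a log2 difference of −0.92 (SE 0.28, 95% interval −1.57 to −0.27, limma adjusted p = 0.185). AT2G06904 (chr2:2806625-2807368) had 5.37, 4.53 and 2.14 TPM in hyp/hyp and 2.14, 2.737 and 1.103 TPM for hyp/c-1, and the mutants overlapped (−0.96, SE 0.41, adjusted p = 0.277). A further member named for zinc ion binding, AT5G61120 on chromosome 5, had 0.159 to 0.190 TPM in hyp/hyp and 0.209 to 0.642 TPM for hyp/c-1 (0.66, SE 0.38, adjusted p = 0.400), higher in each hyp/c-1 library. AT2G03290, of the p24 family of vesicle cargo proteins, had 4 to 6 reads per hyp/hyp library and 2 or 3 per hyp/c-1 library (−0.82, SE 0.27, adjusted p = 0.206), and 30.6% of its 50-base words occur elsewhere. AT3G30823 had 1 to 7 reads per library and overlapping mutants (−0.80, SE 0.47, adjusted p = 0.408). AT2G11778 itself was lower in each hyp/c-1 library than in each hyp/hyp library, by a log2 difference of −0.36 (SE 0.10, 95% interval −0.60 to −0.12, adjusted p = 0.174).

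Of the 15 members with the highest TPM, 5 more encode uncharacterized proteins. AT4G08593 had 1.34, 1.15 and 0.540 TPM in hyp/hyp and 2.11, 2.14 and 2.56 TPM for hyp/c-1, with no overlap (log2 difference 1.17, SE 0.31, limma adjusted p = 0.149). The mutants overlapped for AT4G06643 (2.05 to 3.63 TPM over the mutants), AT5G28560 (1.60 to 2.55 TPM over the mutants), AT5G30360 (0.980 to 2.77 TPM over the mutants) and AT4G08691 (1.262 to 2.20 TPM over the mutants).

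**Figure D5:**
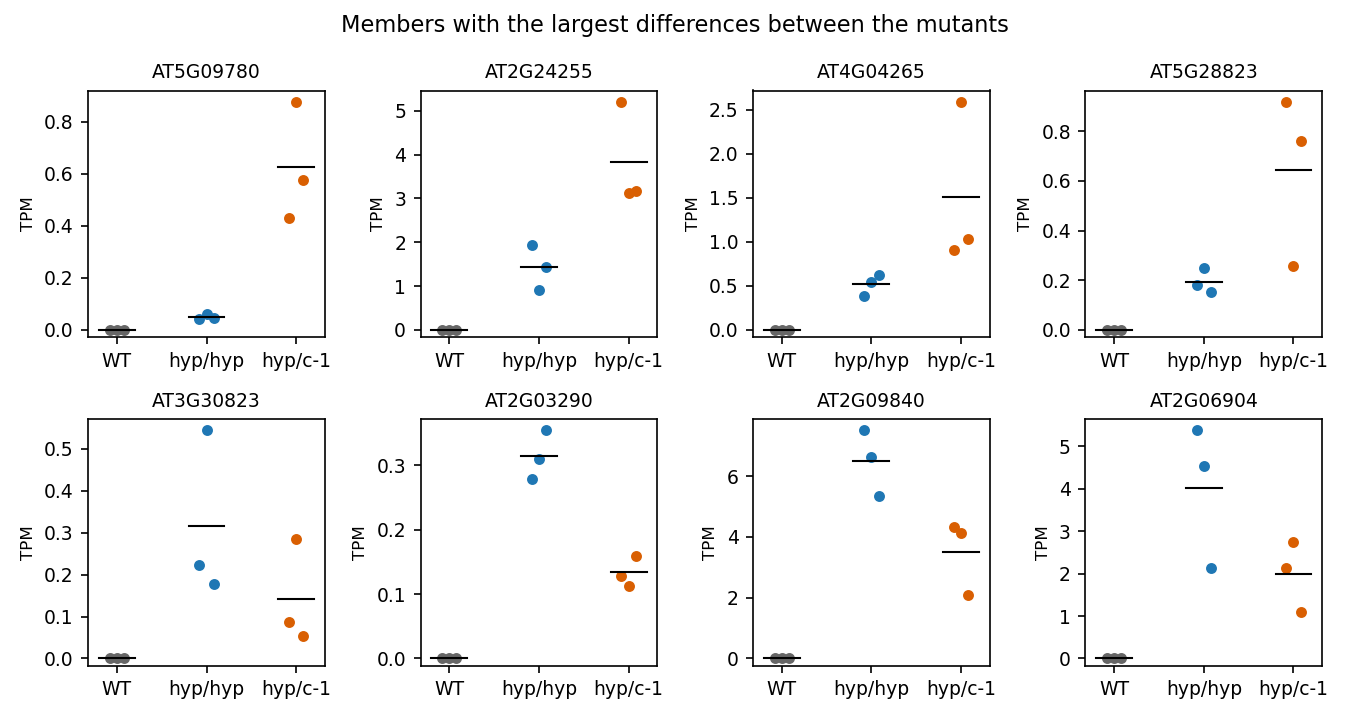
TPM per library, by genotype, for the 4 members with the most positive (top) and the 4 with the most negative (bottom) log2 difference between the mutants; lines mark means. WT is at 0 throughout, and AT5G09780 ran from 0.0430 to 0.0598 TPM in hyp/hyp, and from 0.431 to 0.877 TPM in hyp/c-1.

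Among the members with most reads, ABCG38 (AT3G30842), of the ABC transporter family, had 0.377, 0.270 and 0.446 TPM in hyp/hyp and 0.465, 0.406 and 0.454 TPM for hyp/c-1 (log2 difference 0.24, 95% interval −0.36 to 0.83). AT5G28810 differed by −0.02 (95% interval −0.51 to 0.46). The C2H2 zinc finger gene AT3G29340 had 0.483 to 0.659 TPM in hyp/hyp and 0.758 to 1.09 TPM for hyp/c-1, with no overlap (0.48, 95% interval −0.07 to 1.04, limma adjusted p = 0.342). AT3G29080 overlapped between the mutants, at 0.670 to 1.46 and 1.047 to 1.575 TPM. AT1G30170, of the DUF295 family, had 4.37, 3.38 and 3.33 TPM in hyp/hyp and 5.02, 5.25 and 5.45 TPM for hyp/c-1, with no overlap (0.50, SE 0.16, adjusted p = 0.190). It overlaps AT1G30160, whose means were 2.96 TPM in WT, 11.1 TPM for hyp/hyp and 14.1 TPM for hyp/c-1, and the part of that gene in these reads was not tested. STK differed by 0.86 (SE 0.30, 95% interval 0.16 to 1.56, adjusted p = 0.222). The wide intervals mean that a missed threshold does not show equal levels.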

How the data were processed

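Per the submitters' processing notes, fastp 0.20.1, HISAT2 2.1.10, DESeq2 1.26.0 and build TAIR10 were named, with no role given. The authors deposited 1 table of TPM values for 27655 genes in 9 libraries, each summing to 1000000. The counter and strand setting are not given in the sources used here. All 27445 nuclear genes matched the RefSeq annotation of TAIR10.1. TPM times gene span gave whole reads for 99.97% of 191811 values above 0 (within 0.02 reads), so the deposited TPM divide by the span including introns. A TPM of exactly 0 therefore means 0 reads. Floors are 3 reads per library and cover counting error only.

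Members were found by the rule, and the members and gene lists were chosen with earlier results of these data known. Products were sorted into classes by words in their names. Between the mutants, limma 3.58.1 (R 4.3.3; eBayes with trend, 4 residual degrees of freedom) was fitted to log2(TPM + 0.1), two-sided, with Benjamini-Hochberg adjustment over all genes tested. The script was tested on simulated data. Named genes were the 15 members with the highest mean TPM, members of the lists, the 4 highest and 4 lowest differences, and the 3 next by reads; others were named for their annotation after their values were seen. Replicates were compared first: the chi-square statistic per degree of freedom was 6.29 to 53.4 between replicates of a genotype. Python 3.11.15, pandas 2.3.3, numpy 2.4.6 and matplotlib 3.10.9 were used. Alternatives were other pseudocounts, filters, scalings and fits, a replicate block, voom on recovered reads, and leaving out libraries.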

Additional observations from a re-analysis of the deposited data

How the results depend on the processing

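Requiring 3 reads in every mutant library left 68 members, and allowing 1 WT read gave 182. Leaving out 1 library at a time gave 143 to 169 members, which by construction cannot be fewer than 138. Between the mutants, 0 genes were called in the main fit and in each fit that left out a library. Over all genes, adding the WT libraries gave 144 calls, of which 2 were members, and without a filter on low values there was 1 call, which was no member. The cause was not tested for either. The members' median log2 difference stayed between 0.02 and 0.21 over all 18 alternatives. Each lay less than the 0.151 SD of library medians away from the main value of 0.11. That SD is larger than the main value, so a median of 0 would also have passed. The highest median came from the filter on a mean of 1 TPM, which keeps 26 members. The alternatives include leaving out the members that share over 10% of their 50-base words (median 0.15, chosen after seeing the data) or overlap another gene (0.14, likewise). The AT5G09780 difference ranged from 0.62 with a pseudocount of 1 to 3.17 with a pseudocount of 0.02. Its limma adjusted p ranged from 0.0847 to 0.315 over the fits without WT. The fit with WT is left out of this range, because the rule sets WT to 0. With the replicate block the median was 0.11, 0 genes were called and the lowest limma adjusted p was 0.302. Deviations of same-numbered libraries correlated at −0.130, 0.0620 and −0.193. On the second principal component, however, same-numbered libraries of hyp/hyp and hyp/c-1 lay near each other. Replicate 1 was at 17.8 and 13.5, replicate 2 at 10.4 and 5.63, and replicate 3 at −25.0 and −22.3. Whether the numbers pair libraries is not known, and the main fit did not pair them.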
